A study of Mus musculus with 6 samples.

Results

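The 83 genes described here encode the proteins of the cytosolic ribosome or are near-copies of such genes, out of 53354 gene symbols in an RNA-seq table of the mouse hippocampus. Members were chosen by symbol alone, as Rpl or Rps followed by a number and at most 1 of the letters a, x and l, with Rplp0, Rplp1, Rplp2 and Rpsa added and pseudogenes named with -ps left out. The table lists 468 isoforms of these genes. By name, 43 members are proteins of the large subunit, 30 of the small subunit and 3 of the P stalk, while 7 are near-copies whose symbol ends in l (Rpl3l, Rpl6l, Rpl10l, Rpl32l, Rpl39l, Rps4l and Rps27l). The last group is given apart below, and the other 76 are called core genes. By annotation the isoforms of Rpl6l and Rpl32l are processed pseudogenes. The isoform that holds all counts of Rps4l is a processed transcript without a reading frame.

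The 2 groups were 3 N-cre and 3 N-cre;Fox1 mice, all C57BL/6 and 3 months old, with 1 library of total hippocampal RNA per mouse. Both groups carry Nes-Cre, a Cre recombinase driven by the nestin promoter, which in this line acts in hippocampal neurons. N-cre;Fox1 mice carry in addition 1 copy of a conditional Rbfox1 transgene at the Gt(ROSA)26Sor locus (R26-Rbfox1 +/flox), where the CAG promoter drives the Rbfox1 cDNA once Cre has removed a stop cassette. Rbfox1 is a neuronal RNA-binding protein that acts on splicing and on mRNA stability, and the study asked which isoforms change when it is raised. The control for Cre is thus shared, while a mouse with the transgene and no Cre was not part of the comparison. Because whole hippocampus was sequenced, fewer cells of a type and less RNA per cell cannot be told apart in these values.

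A ribosome is built from rRNA and one copy of nearly every ribosomal protein, so its protein genes are transcribed in all cells at high and similar levels. In vertebrates most of these mRNAs begin with a run of pyrimidines, the terminal oligopyrimidine (TOP) motif, through which the kinase mTOR and the RNA-binding protein LARP1 control their translation. In neurons ribosomes lie in the cell body, in dendrites and near synapses, where local protein synthesis takes part in plasticity.

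The values are expected counts, which RSEM estimated per isoform and which need not be whole, because a read pair that fits several isoforms is divided among them. They summed to 40463587 to 62141336 per mouse, of which the members took 1.07% to 1.12%. Rbfox1 itself, which the transgene expresses, had 288, 273 and 277 CPM, counts scaled to library size, in the N-cre and 300, 256 and 288 CPM in the N-cre;Fox1 mice, with a log2 fold change of 0.01 and an adjusted p of 0.992 (edgeR). Thus the deposited counts, summed over the isoforms of Rbfox1, show no separation of the genotypes in these 6 mice, and "N-cre;Fox1" below names the label. For hippocampi of this line the paper reports a modest rise of Rbfox1 mRNA, with data not shown, and of the protein on immunoblots. Choroid plexus markers summed to 2266 CPM in N-cre replicate 3 and 5103 CPM in N-cre;Fox1 replicate 2 but to 30 to 41 CPM in the others, and Xist was high in replicate 1 of each genotype (27387 and 22347 counts, against 17 to 22). Markers of neurons, astrocytes, oligodendrocytes, their precursors, microglia, endothelium and blood were detected in every mouse, and 0 of the 61 markers in the 8 lists passed an adjusted p of 0.05. Of the 8 astrocyte markers 4 were higher and 4 lower in the N-cre;Fox1 mice, with log2 fold changes from -0.14 to 0.38. An unadjusted p under 0.05 (edgeR) was reached by 4 of them, compared with 6.19% of all genes tested. The genotypes did not overlap for 4, compared with 12.2% of all genes. Summed over the 8, the level was 3645 to 3796 CPM in the N-cre and 3873 to 4229 CPM in the N-cre;Fox1 mice, also without overlap. Gfap had 444 ± 14.9 and 579 ± 60.8 CPM (SD, n = 3, edgeR adjusted p = 0.320). All 8 choroid plexus markers had a fold change above 0 and 10 of 12 neuronal markers one below 0. The part of these markers in the values below was not tested.

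The start of these genes is shown first, because it is the part that their mRNAs share. RefSeq promoters (GRCm38.p6, 300 bases with 250 before the start) were at hand for 56 of the 76 core genes. Given here are the 15 bases on either side of the annotated start, on the coding strand, for 5 core genes with a long pyrimidine run and 3 without one, with the longest run in capitals.

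Rps6: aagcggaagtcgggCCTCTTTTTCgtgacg
Rplp2: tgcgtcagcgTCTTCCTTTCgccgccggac
Rpl31: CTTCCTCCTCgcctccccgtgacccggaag
Rps24: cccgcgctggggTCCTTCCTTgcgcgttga
Rpl12: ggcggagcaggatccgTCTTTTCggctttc
Rpl10: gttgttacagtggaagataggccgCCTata
Rps16: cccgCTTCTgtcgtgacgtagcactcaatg
Rps19: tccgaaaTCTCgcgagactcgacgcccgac

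These windows lie at chr4:86857353-86857382 on the minus strand (Rps6) and, on the plus strand, at chr7:141447636-141447665 (Rplp2), chr1:39367836-39367865 (Rpl31), chr14:24490663-24490692 (Rps24), chr2:32961697-32961726 (Rpl12), chrX:74270801-74270830 (Rpl10), chr7:28350674-28350703 (Rps16) and chr7:24884577-24884606 (Rps19). The longest pyrimidine run was 10 bases in Rps6, Rplp2 and Rpl31, 9 in Rps24 and 7 in Rpl12, but 3 in Rpl10, 5 in Rps16 and 4 in Rps19. In Rps6, Rplp2 and Rps24 the run spans the annotated start, which falls at base 16, whereas in Rpl31 the longest run ends before it, with a shorter run across it, and in Rpl12 the run begins 1 base after it.

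A run of at least 7 pyrimidines within this window was found on the coding strand in 28 of 56 core genes (50%), compared with 18.2% of 11818 protein-coding genes tested here and 18.5% of all 27025 promoters. On the opposite strand the run was found in 2 core genes (3.57%), compared with 18.2% of the protein-coding genes tested. The letters CCGGAAG, a core of the site of ETS factors such as Gabpa, occurred on either strand of the 300 bases in 22 core genes (39.3%) and in 15.97% of the protein-coding genes. CTTTCC, which can lie inside a pyrimidine run, occurred in 48.2% of core genes and 26.3% of the protein-coding genes, and CTATAAA, a core promoter box, in 8.93% and 2.45%. These are matches of letters in a window of fixed length around an annotated start, which can differ from the start used in the hippocampus.

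Core genes were compact. Their median span was 3266 bp and their median transcript 750 nt long, compared with 24885 bp and 2924 nt over 15330 protein-coding genes tested. A small nucleolar RNA lay inside 29 of the 76 core genes (38.2%), with 56 such RNAs in all, but inside 1.69% of the protein-coding genes. Small nucleolar RNAs guide the modification of rRNA and are cut from the introns of their hosts. Reads of them were nearly missing from these libraries, with at most 7 counts over the 6 mice for any of the 56, and none passed the filter on low counts. Members lay on every chromosome but 19 and Y, with 14 of them on chromosome 7. The member nearest to the site of the transgene on chromosome 6 was Rpl32, 2.73 Mb from Gt(ROSA)26Sor, with a log2 fold change of 0.02 and an adjusted p of 0.978.

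Levels of the core genes, as TPM (a level per length scaled to library size, computed here from annotated transcript lengths), spanned 10.6-fold, from 139 to 1479 TPM with a median of 420 TPM over the 6 mice. Summed over the 76 they came to 33607 to 34971 TPM per mouse. Highest was Rplp1, a P stalk protein that helps recruit elongation factors, at 1452 to 1519 TPM across the mice. Rps15 followed at 911 to 1022 TPM, then Rps29 at 912 to 972, Rpl13a at 794 to 874 and Rpl3 at 716 to 764 TPM. Lowest were Rpl22 at 133 to 144 TPM, Rps20 at 166 to 178, Rpl35 at 175 to 180, Rpl39 at 186 to 200 and Rps26 at 187 to 202 TPM. Of the 75 pairs of neighbours in this order, 66 overlapped in range over the 6 mice, so that the order of most direct neighbours is not resolved. Genes farther apart in the order were not compared in this way. The 9 steps that did not overlap include Rplp1 over Rps15, Rps29 over Rpl13a, Rpl13a over Rpl3, Rpl39 over Rpl35 and Rps20 over Rpl22. Order at the top also depends on the length used, because with 200 nt taken off each transcript Rps29 moved from rank 3 to 2, Rps15 from 2 to 3 and Rpl3 from 5 to 18.

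**Figure D1:**
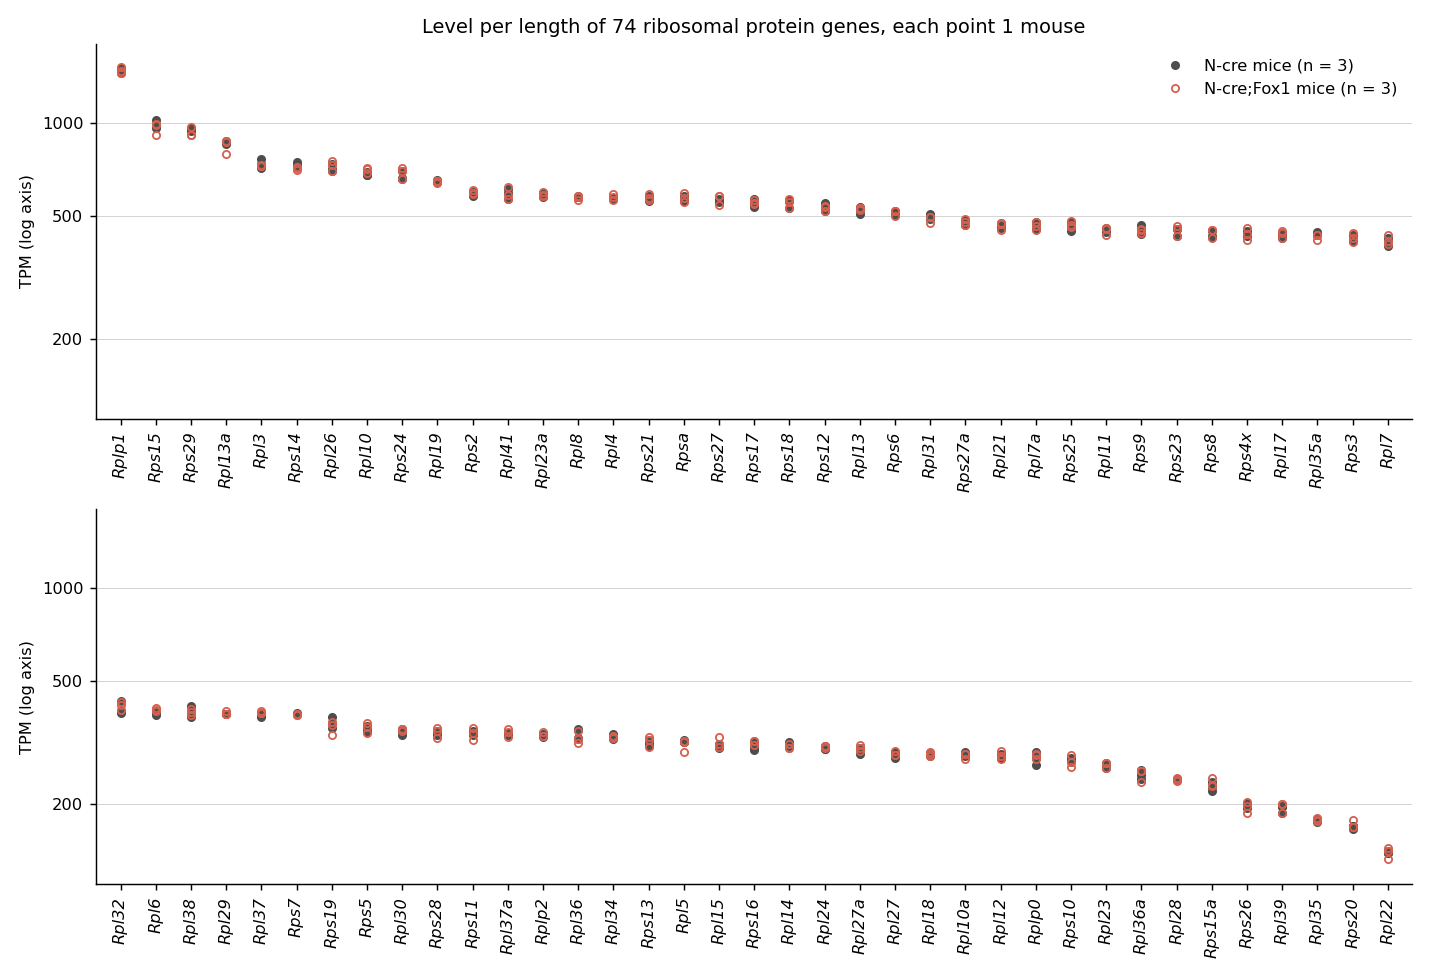
Level per length (TPM, log axis) of 74 of the 76 core ribosomal protein genes in each of 3 N-cre (filled) and 3 N-cre;Fox1 (open) mice, ordered by mean and split over 2 rows. Levels run from 1479 TPM for Rplp1 to 139 TPM for Rpl22, and for most genes the 6 mice lie nearly on top of each other.

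The comparison of the genotypes asked whether any ribosomal protein gene differs between mice labelled N-cre and N-cre;Fox1, and none passed the test. Of the 83 members 81 passed the filter on low counts and 0 passed an adjusted p of 0.05 (edgeR, quasi-likelihood) in the fit over all 18924 genes, of which 0.0264% passed it (5 genes). No member reached an unadjusted p of 0.05 either, compared with 6.19% of all genes tested. DESeq2 and limma-voom also called 0 of the members, although DESeq2 called 0.264% of all genes. The fold change of N-cre;Fox1 over N-cre was above 0 for 37 and below 0 for 44, with a median log2 fold change of -0.0012, beside -2.6e-05 over all genes. The lowest adjusted p among the members was 0.885.

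Fold changes of the 76 core genes ranged from -0.06 to 0.03 on the log2 scale. Among 4132 other genes in the same range of CPM, 79.7% had a fold change no larger in size than the largest of the core genes, as had 47.1% of all genes tested. Every one of the 76 intervals (95%, limma-voom) included 0, and together they reached from -0.164 to 0.115. These bounds stand for 0.892-fold and 1.08-fold. Core genes also varied little within a genotype, with a median SD of 0.0314 on the log2 scale. The median was 0.0474 for the 4132 genes, which were not matched by level within that range, and 0.101 for all genes. In 65 of the 76 core genes the fold change was smaller than the gene's own SD within a genotype.

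**Figure D2:**
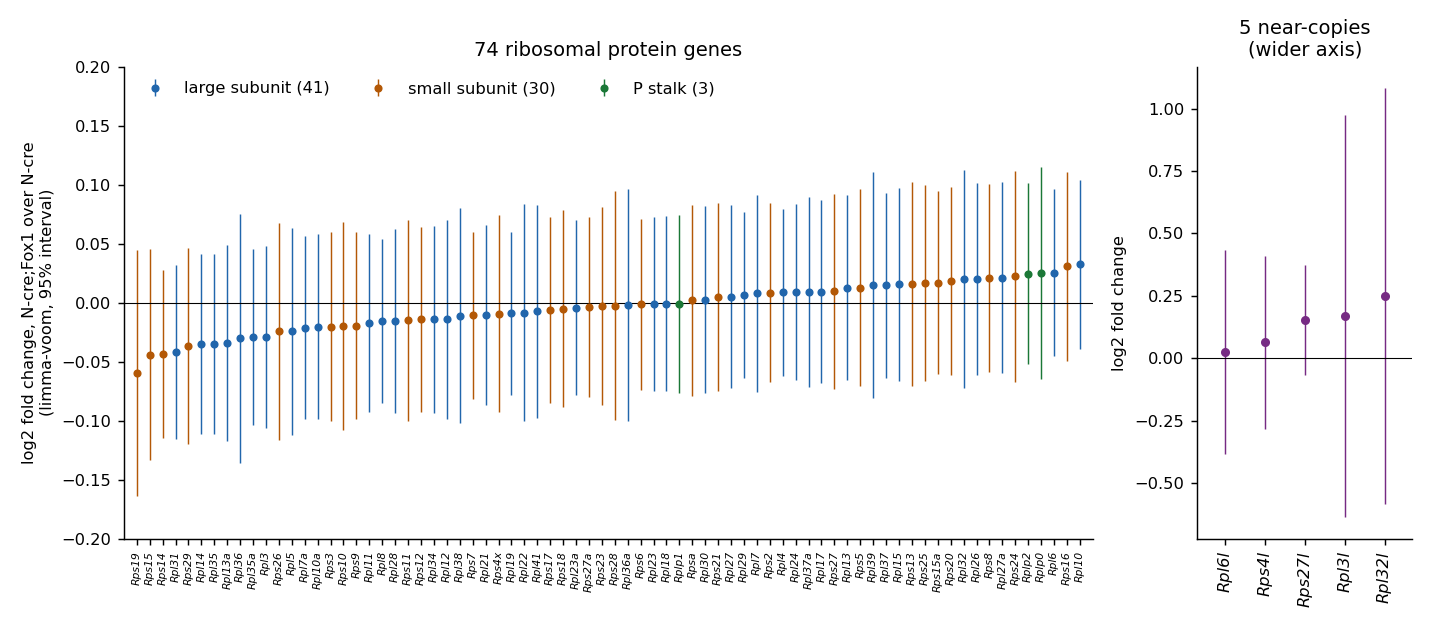
Log2 fold change of N-cre;Fox1 over N-cre mice with its 95% interval (limma-voom, n = 3 mice per genotype) for 74 of the 76 core genes, coloured by subunit and ordered by value, and on a wider axis for the 5 near-copies tested. All intervals cross 0, and those of the core genes stay within -0.164 and 0.115.

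The genotypes did not overlap in CPM for 6 of the 81 members tested (7.41%), beside 12.2% of all genes tested, and of these 1 was higher and 5 were lower, beside 6.06% and 6.11% of all genes. Rpl35 had 67.5, 66.6 and 67.0 CPM in the N-cre and 65.7, 65.2 and 65.4 CPM in the N-cre;Fox1 mice. This is a difference of -0.03 on the log2 scale. Rps14, whose loss from one chromosome underlies the anaemia of the 5q syndrome, had 178, 179 and 182 CPM in the N-cre and 172, 174 and 176 CPM in the N-cre;Fox1 mice. Rpl31, Rpl35a and Rpl8 were also lower, by at most 0.04 on the log2 scale, and Rpl29 was higher by 0.006. Rpl29 was in fact the steadiest core gene, with all 6 mice between 121.6 and 122.6 CPM.

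Farthest below 0 among the core genes was Rps19 (chr7:24884371-24889806, mm10), a small-subunit protein that is mutated in Diamond-Blackfan anaemia. This gene had 98.7, 102 and 107 CPM in the N-cre and 93.5, 97.8 and 104 CPM in the N-cre;Fox1 mice, so that the groups overlapped. On the log2 scale the difference was -0.06, with an SE of 0.0458 and an adjusted p of 0.910, and it was also the core gene with the widest spread between mice of a genotype (SD 0.0663 on the log2 scale). With each mouse left out it ran from -0.10 (without N-cre;Fox1 replicate 3) to -0.02 (without N-cre;Fox1 replicate 1), and it was -0.03 without N-cre replicate 3. Rps15 had 207, 219 and 210 CPM in the N-cre and 196, 209 and 212 CPM in the N-cre;Fox1 mice, and Rps29 had 158, 159 and 160 CPM against 153, 150 and 162 CPM. In both the groups overlapped, and the log2 fold changes were -0.04. That of Rps15 ran from -0.07 without N-cre;Fox1 replicate 3 to -0.0067 without N-cre;Fox1 replicate 1, and was -0.02 without N-cre replicate 2. That of Rps29 ran from -0.07 without N-cre;Fox1 replicate 3 to -0.01 without N-cre;Fox1 replicate 2, and was -0.02 without N-cre;Fox1 replicate 1.

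On the other side stood Rpl10 (chrX:74270812-74273135), a protein of the large subunit near its catalytic centre, with 213, 215 and 212 CPM in the N-cre and 215, 218 and 222 CPM in the N-cre;Fox1 mice. This gave 0.03 on the log2 scale, with an SE of 0.0316 and an adjusted p of 0.938, and N-cre;Fox1 replicate 1 was below the highest N-cre mouse. Rps16 had a mean of 88.6 ± 2.30 CPM (SD, n = 3) in N-cre and 90.5 ± 1.27 CPM (SD, n = 3) in N-cre;Fox1 mice. Rpl6 had 208 ± 3.08 and 212 ± 1.07 CPM. In both the groups overlapped, and the log2 fold changes were 0.03.

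Both subunits gave medians near 0. Of 43 large-subunit genes 18 were higher and 25 lower, with a median of -0.0047, and of 30 small-subunit genes 12 were higher and 18 lower, with a median of -0.0039. The 3 stalk genes, which form the flexible arm that meets translation factors, had log2 fold changes of 0.02 (Rplp0), -0.0008 (Rplp1) and 0.02 (Rplp2). CPM summed over the large-subunit genes was 1.47 ± 0.00690 times that of the small-subunit genes in N-cre and 1.47 ± 0.0111 times in N-cre;Fox1 mice (SD, n = 3), a ratio of summed counts that is not corrected for length.

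Genes with further roles gave differences of similar size. Rps6, the protein that S6 kinase phosphorylates downstream of mTOR, had 190, 195 and 190 CPM in the N-cre and 189, 192 and 194 CPM in the N-cre;Fox1 mice. Rpsa, also known as a laminin receptor, had 323, 336 and 326 CPM against 322, 324 and 341 CPM. Rpl41, which encodes the smallest protein of the set, had 118, 123 and 125 CPM against 118, 127 and 120 CPM. The groups overlapped for each of the 3, and their adjusted p-values were 0.998, 0.998 and 0.992.

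What did vary was the mouse. Summed over the members, the level was 10928, 11171 and 11088 CPM in the N-cre and 10839, 11033 and 11207 CPM in the N-cre;Fox1 mice, with means of 11062 ± 124 and 11026 ± 184 CPM (SD, n = 3). The difference of -36.0 CPM, or -0.325%, was smaller than the pooled SD of 157 CPM. N-cre;Fox1 replicate 1 was below a gene's mean over the 6 mice for most core genes, with only 14 of 76 above it, and N-cre replicate 1 had 19 above it. N-cre replicate 2 had 58 and N-cre;Fox1 replicate 3 had 63 of 76 above it, with N-cre replicate 3 at 47 and N-cre;Fox1 replicate 2 at 37. The core genes thus moved together from mouse to mouse, but by little, since the medians ran from -0.026 to 0.021 on the log2 scale, and each genotype held both high and low mice. Core genes share each library and its normalization, so these counts describe 6 libraries and not 76 measurements. The 2 lowest mice were the 2 with high Xist, and without them the median log2 fold change of the members was 0.0094 and 0 were called. Without the 2 mice with choroid plexus RNA the median was -0.0027 and again 0 were called.

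**Figure D3:**
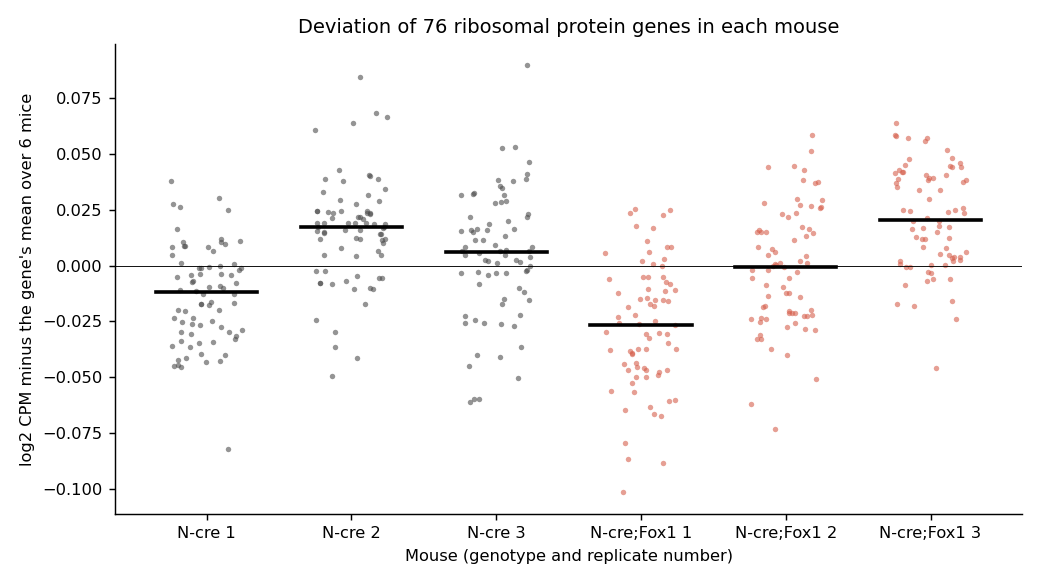
Deviation of each of the 76 core genes from its own mean over the 6 mice (log2 CPM), in each mouse, with a bar at the median. Medians are lowest in N-cre;Fox1 replicate 1 (-0.026) and N-cre replicate 1 (-0.012) and highest in N-cre;Fox1 replicate 3 (0.021) and N-cre replicate 2 (0.017).

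Rpl10, Rpl36a, Rpl39 and Rps4x lie on the X chromosome. Rps4x had 182 and 174 CPM in the 2 mice with high Xist and 178 to 187 CPM in the other 4, and Rpl10 had 213 and 215 CPM against 212 to 222 CPM, so that both overlapped. Rpl36a was lower in the mice with high Xist, at 52.3 and 51.5 CPM, than in the others, at 53.8 to 55.9 CPM. Rpl39, a small protein lining the exit tunnel of the ribosome, had 48.7 to 52.3 CPM over all 6 mice. Log2 fold changes between the genotypes for these 4 genes were 0.03, -0.0047, 0.02 and -0.0089 in the order Rpl10, Rpl36a, Rpl39 and Rps4x.

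Near-copies were rare transcripts in these libraries. Rpl3l, known from heart and skeletal muscle, stood at 0.0343% to 0.0624% of the TPM of Rpl3, and Rpl39l, known from testis, had from 0 to 4 counts per mouse and was not tested. Rpl10l, also of testis, was listed at 0 in every mouse. The exceptions were Rps27l, a target of the tumour suppressor p53, at 5.02% to 6.47% of the TPM of Rps27, and Rps4l, at 8.78% to 12.01% of that of Rps4x. Reads of a near-copy can be shared with its partner, and Rps4l, Rpl6l and Rpl32l have 1 exon and so no intron to tell them apart, so their levels are uncertain.

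Rps27l had the largest log2 fold change among members with mean normalized counts over 100, at 0.16 with an SE of 0.103. It had 6.57, 6.03 and 6.63 CPM in the N-cre and 6.56, 7.89 and 6.99 CPM in the N-cre;Fox1 mice, and its adjusted p was 0.885. The groups overlapped at N-cre;Fox1 replicate 1, and with that mouse left out the log2 fold change was 0.22 with an adjusted p of 0.585. Without N-cre;Fox1 replicate 2, the highest mouse, it was 0.08 with an adjusted p of 0.924. Rps4l had 15.5, 19.9 and 17.6 CPM against 15.1, 18.5 and 21.1 CPM, with a log2 fold change of 0.05 that turned negative when N-cre replicate 1 or N-cre;Fox1 replicate 3 was left out. Rpl3l, Rpl6l and Rpl32l had mean normalized counts of 11.2, 67.1 and 13.8, and none was called. The interval of Rpl6l was -0.385 to 0.432, while those of Rpl3l and Rpl32l were wider and together reached from -0.637 to 1.08.

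The study was one of isoforms, since Rbfox1 acts on splicing, and ribosomal protein genes have many annotated isoforms besides the main mRNA. Of the 468 member isoforms 370 passed the filter, and 0 were called by edgeR, as were 0.0% of all 50556 isoforms tested. The paper, with EBSeq and a filter on TPM, reports many isoforms that differ between these genotypes. That test was not run here, so the 0 calls hold for edgeR and its filter. An unadjusted p under 0.05 was reached by 11 member isoforms (2.97% of those tested), beside 4.78% of all isoforms. DESeq2's Wald test called 0 of them, with a lowest adjusted p of 0.0941, although it called 0.425% of all isoforms. The genotypes did not overlap in 41 of the 370 (11.1%), beside 11.5% of all isoforms, and of these 18 were higher and 23 lower, beside 5.85% and 5.68% of all isoforms.

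Protein-coding isoforms took 92.3% ± 0.0940 of the members' expected counts in N-cre and 92.2% ± 0.0334 in N-cre;Fox1 mice (SD, n = 3). Isoforms with a retained intron took 2.88% ± 0.0335 and 2.91% ± 0.0516, those annotated as targets of nonsense-mediated decay 2.61% ± 0.0541 and 2.66% ± 0.0612, and processed transcripts without a reading frame 2.19% ± 0.0348 and 2.23% ± 0.0154. In 74 of the 76 core genes the most abundant isoform was protein-coding. The exceptions were Rps16, led by a retained-intron isoform (Rps16-203, 38.5% of the gene), and Rpsa, led by an isoform annotated to nonsense-mediated decay (Rpsa-206, 47.9%). The leading isoform held a median of 89.9% of a gene, with over 90% in 38 genes and under 50% in 7, among them Rpl13a (29.4%). Such splits are RSEM's estimates for short overlapping transcripts.

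Rpl13a, which also takes part in silencing of inflammatory mRNAs, had the member isoform with the lowest p in edgeR, while another isoform ranked first in DESeq2. Rpl13a-205, of 690 nt and annotated to nonsense-mediated decay, had 21.2, 19.1 and 20.7 CPM in the N-cre and 16.7, 13.5 and 16.1 CPM in the N-cre;Fox1 mice, and the groups did not overlap. That is a log2 fold change of -0.40, with an SE of 0.0975 and an adjusted p of 0.856. As a share of the gene it was 8.39% ± 0.506 in N-cre and 6.54% ± 0.888 in N-cre;Fox1 mice (SD, n = 3), with an exact two-sided permutation p of 0.1, the smallest that 3 against 3 mice can give. Because Rpl13a-205 was picked for its lack of overlap in CPM, this p is no further evidence. The processed transcript Rpl13a-203 was also lower without overlap, at 24.7% ± 0.516 and 23.1% ± 1.43 of the gene. Rpl13a-201 and Rpl13a-207, both protein-coding, were at 28.5% and 19.0% in N-cre and at 30.3% and 20.7% in N-cre;Fox1 mice, and the sum over the gene had a log2 fold change of -0.03.

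By size of change among isoforms with mean normalized counts over 100 and no overlap, Rps24-212, Rpl13a-205, Rps18-206, Rpl5-204 and Rpl31-203 were the 5 lowest and Rpl24-204, Rps2-204, Rps26-202, Rpl11-202 and Rpl35a-205 the 5 highest. Rps24-212, Rpl5-204, Rps2-204 and Rps26-202 retain an intron, while Rpl11-202 and Rpl24-204 are processed transcripts and Rps18-206, Rpl31-203 and Rpl35a-205 are protein-coding. Rpl24-204 had 3.77, 3.79 and 3.13 CPM in the N-cre and 4.33, 5.02 and 4.88 CPM in the N-cre;Fox1 mice, with a log2 fold change of 0.41. Rps26-202 took 8.66%, 11.1% and 11.6% of its gene in the N-cre and 13.0%, 12.1% and 13.0% in the N-cre;Fox1 mice. Shares did not overlap for 9 of the 10, each with an exact permutation p of 0.1, and did for Rpl5-204 (p = 0.2, exact permutation test). Since isoforms were picked here because the genotypes did not overlap, these values describe them and are no further evidence. Their adjusted p-values in edgeR were all 0.856 or higher.

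**Figure D4:**
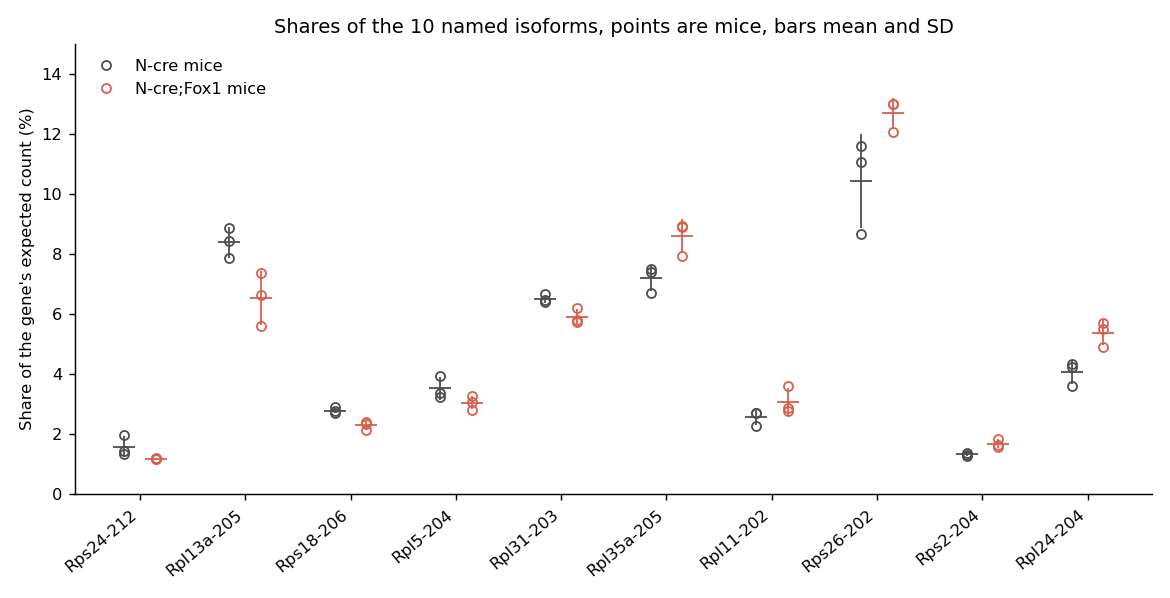
Share of the gene's expected count (%) held by the 10 member isoforms named by size of change, in 3 N-cre and 3 N-cre;Fox1 mice, with mean and SD. Only the shares of Rpl5-204 overlap, and the means lie farthest apart for Rps26-202 (10.4% and 12.7%) and Rpl13a-205 (8.39% and 6.54%).

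Several ribosomal proteins are known to regulate their own splicing, and their isoforms were looked at as a group. Rps24, whose mRNA ends differ by short exons that tissues use differently, had 11 isoforms tested, with log2 fold changes from -0.54 to 0.37. Rps24-202 took 72.9% ± 1.01 in N-cre and 71.9% ± 1.99 in N-cre;Fox1 mice, and Rps24-205, with 1 more exon, 6.82% ± 0.428 and 6.78% ± 0.823. Rps24-201, with 1 exon fewer than Rps24-202, had shares of 4.56%, 5.22% and 5.07% in the N-cre and 7.87%, 5.07% and 6.08% in the N-cre;Fox1 mice. It was thus highest in N-cre;Fox1 replicates 1 and 3, with an overlap at replicate 2 and an adjusted p of 0.990.

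Rpl3 limits its own expression through an isoform that keeps an intron. Here its retained-intron isoform Rpl3-204 had 13.6, 14.2 and 14.7 CPM in the N-cre and 13.3, 12.7 and 13.1 CPM in the N-cre;Fox1 mice, or 3.30% ± 0.123 and 3.09% ± 0.0315 of the gene, without overlap and with an adjusted p of 0.990. Rpl12, which does so through a transcript sent to nonsense-mediated decay, had 17.5% ± 1.76 and 18.9% ± 0.857 in such an isoform (Rpl12-201), and the groups overlapped. Rps3-201, the main isoform of Rps3, held 63.0% ± 0.814 and 62.7% ± 0.852. In Rpl10a the decay isoform Rpl10a-203 was at 3.30% ± 0.190 and 3.97% ± 0.649, again with overlap. Of its 7 isoforms tested, 2 rare ones with a retained intron did not overlap in CPM, beside 11.5% of all isoforms tested. They are given because they did not overlap, so their unadjusted p-values are no further evidence. Rpl10a-205 had 0.272, 0.342 and 0.436 CPM in the N-cre and 0.607, 1.25 and 0.556 CPM in the N-cre;Fox1 mice, with an unadjusted edgeR p of 0.0261. Rpl10a-207 had 0.803, 0.585 and 0.792 CPM against 0.368, 0.429 and 0.377 CPM, with an unadjusted edgeR p of 0.0140. Their differences were thus opposite in sign, and both had an adjusted p of 0.990.

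Estimated isoforms of Rpl22 differed in 1 mouse, and the cause was not tested. Its isoforms Rpl22-204 and Rpl22-208, of 2051 and 2048 nt, differ in length by 3 nt. N-cre replicate 2 was assigned 35.6% to the former and 45.4% to the latter, while the other 5 mice had at most 0.0825% and at least 80.0%. The sum of both shares was 80.0% to 81.5% in all 6 mice. At the level of the gene Rpl22 had 74.9, 76.7 and 76.6 CPM in the N-cre and 72.7, 74.9 and 79.3 CPM in the N-cre;Fox1 mice.

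Other genes of ribosome making and translation were read from the same fit, and 0 were called in any list. Core ribosomal proteins outside the symbol rule had log2 fold changes of -0.0050 for Fau, -0.0090 for Rps3a1 and 0.02 for Rack1. Rpl22l1, the paralog that can replace Rpl22, stood at -0.07 (adjusted p = 0.885) and Rpl7l1 at 0.05. Of 13 translation elongation factors 6 were higher and 7 lower, with a median of -0.0052. Eef2k, the kinase that inhibits Eef2, was lowest at -0.11, with 52.7, 50.7 and 50.9 CPM in the N-cre and 50.3, 46.2 and 46.7 CPM in the N-cre;Fox1 mice (adjusted p = 0.782). Of 42 initiation factors 23 were higher and 19 lower, with a median of 0.0076 and a range from -0.09 (Eif3j2) to 0.57 (Eif2s3y). Eif2s3y, a Y-linked gene, had 0.0743 and 0.0809 CPM in the 2 mice with high Xist and 29.4 to 50.1 CPM in the other 4 (adjusted p = 0.986). Of 26 other mRNAs with a TOP motif 11 were higher and 15 lower, with a median of -0.0067. Mitochondrial ribosomal proteins, which make up a separate ribosome, were higher in 32 and lower in 45 of 77, with a median of -0.0113, and ranged from -0.13 (Mrpl23) to 0.14 (Mrps28).

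In the lists of genes that make or watch over ribosomes more members were higher than lower, and none was called. Of all genes tested 9460 were higher and 9464 lower. Of 17 genes of rRNA transcription 12 were higher, with a median of 0.04 and extremes in Polr1b (0.09) and Twistnb (-0.11). Of 73 assembly factors 48 were higher, with a median of 0.01, from -0.08 (Rpf2) to 0.17 (Ltv1, a factor of small-subunit assembly). The mTOR and LARP1 list had 21 of 32 higher, with a median of 0.02 and a range from -0.40 (Eif4ebp3, at 0.309 to 0.804 CPM, adjusted p = 0.912) to 0.19. At the upper end Larp4, an RNA-binding protein that protects poly(A) tails, had 38.5, 36.7 and 37.4 CPM in the N-cre and 39.9, 45.2 and 43.2 CPM in the N-cre;Fox1 mice, with a log2 fold change of 0.19 and an adjusted p of 0.636. Mtor itself was at -0.02 and Larp1 at 0.03. The surveillance list joined genes that sense stalled or faulty ribosomes with genes of the p53 pathway and of assembly. Of its 19 genes tested 15 were higher, with a median of 0.06 beside -2.6e-05 over all genes. Mdm2, the p53 ubiquitin ligase that free ribosomal proteins bind, was highest there at 0.12 (adjusted p = 0.775) and overlapped between the genotypes. The genotypes did not overlap for 4 of 17 rRNA transcription genes, 6 of 73 assembly factors, 6 of 32 mTOR and LARP1 genes and 6 of 19 surveillance genes, beside 12.2% of all genes. Summed CPM did not overlap for surveillance (1222 to 1228 against 1251 to 1266) and rRNA transcription (575 to 580 against 582 to 601). It overlapped for the other lists of this paragraph, and the cause was not tested.

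**Figure D5:**
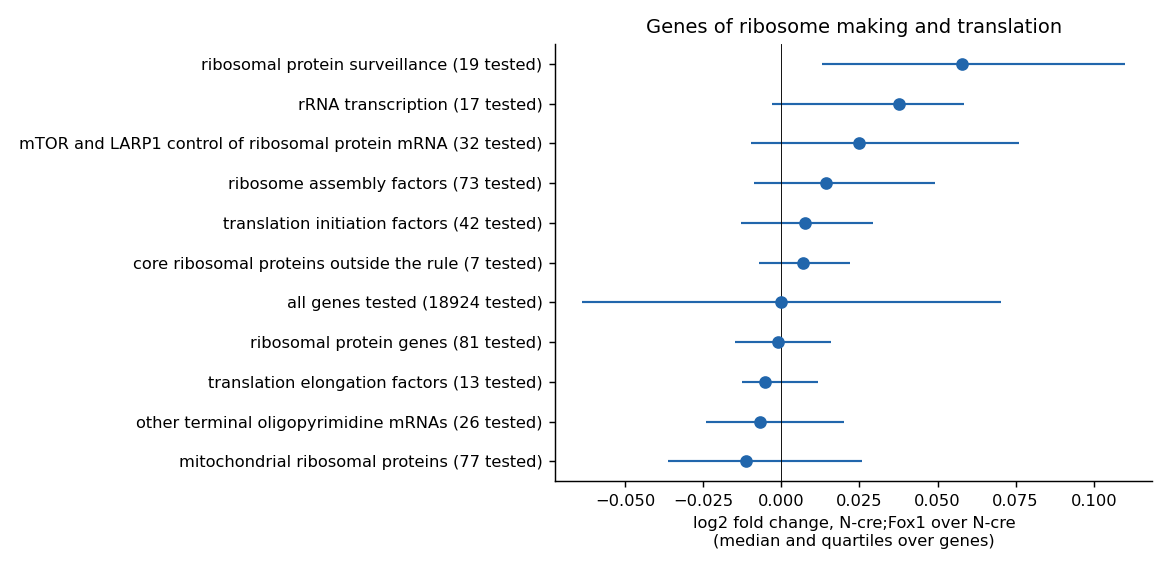
Median and quartiles of the log2 fold change (N-cre;Fox1 over N-cre) over the genes of each list, beside the 81 ribosomal protein genes and all 18924 genes tested. Medians run from -0.0113 for mitochondrial ribosomal proteins to 0.06 for the surveillance list, and no gene of any list was called.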

How the data were processed

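Hippocampal RNA of 6 mice, 3 per genotype, was sequenced with a stranded total RNA kit. Per the labels and the study's methods, the authors used Cutadapt 1.18 for trimming and STAR 2.5.2b for mapping to mm10, and deposited RSEM 1.3.0 expected counts of 133944 isoforms, neither normalized nor filtered. Here counts were summed per gene symbol and rounded. Both levels were filtered with filterByExpr (minimum count 10, minimum total 15), normalized by TMM, and tested with the quasi-likelihood test of edgeR 4.0.16 in R 4.3.3, with genotype as the only term and Benjamini-Hochberg adjustment over all 18924 genes or 50556 isoforms. Only the gene-level edgeR fit was tried on simulated counts. The changes put in were far larger than those of the core genes, so that trial does not bear on differences of their size. Intervals came from limma-voom (limma 3.58.1) and permutation tests from SciPy 1.17.1. EBSeq, which the study used, was not used here.

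TPM used lengths of GENCODE M21, in which 450 of the 468 member isoforms have the same version. Reads shared with pseudogenes were divided by RSEM; 286 named pseudogene symbols together held 0.635% to 0.689% of the members' count.

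The members and lists were chosen with earlier results of these data known. Named were members with the 5 largest changes each way at mean normalized counts of 100 or more, the 5 highest and lowest per length, near-copies with their partners, X-linked, autoregulated and stalk members, Rpsa, Rps6 and Rpl41, the 5 isoforms each way with the largest change at that count without overlap, and the extremes of each list; others were named after their values were seen. Tried as alternatives were upper quartile normalization, DESeq2's size factors, 2 other filters, DESeq2 1.42.0, limma-voom, unrounded counts, the replicate number as a block, a term for mice with Xist counts above 1000, named pseudogenes added, shorter lengths and each mouse left out. Some items are not reported here. Nothing says whether the mice of a genotype were littermates.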

Additional observations from a re-analysis of the deposited data

How the results depend on the processing

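0 member genes and 0 member isoforms were called under each of 18 and 17 alternatives, with lowest adjusted p-values of 0.585 (N-cre;Fox1 replicate 1 left out) and 0.0941 (DESeq2). The lists likewise gave 0 calls under 17 alternatives, with a lowest adjusted p of 0.0641 (without the 2 mice with high Xist). The median log2 fold change of the members ran from -0.0128 to 0.0157 and changed sign between settings, and the summed difference ran from -126 to 57.6 CPM, with both ends reached when N-cre;Fox1 replicate 3 or replicate 1 was left out. Rps4l ranged from -0.0699 to 0.17 with each mouse left out. Over all genes DESeq2 called 50, no filter 45, the Xist term 11, the fit without high-Xist mice 65 and each mouse left out 2 to 29, instead of 5, and DESeq2 called 215 isoforms instead of 0; the cause was not tested.

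The labels do not say whether replicate numbers pair the mice. Deviations correlated at 0.495, -0.210 and -0.358 for numbers 1, 2 and 3, and with so few mice such values cannot decide it. With the replicate block 0 member genes and 0 member isoforms were called, and the median log2 fold change was -0.0012. The 2 sets without choroid plexus or high-Xist mice were chosen after seeing the data.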

Other observations

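Rps27a-201, a protein-coding isoform of a gene whose protein is made as a fusion with ubiquitin, had 59.3, 58.7 and 61.5 CPM in the N-cre and 62.8, 65.4 and 63.5 CPM in the N-cre;Fox1 mice, without overlap. It did not pass the adjustment over all isoforms, and it was chosen after its values were seen.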
